A study of Homo sapiens with 6 samples.

Results

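Near-constitutive exons are cassette exons that the control cells included almost always. An exon counted here when its control inclusion rate was at least 0.90 and each group had at least 30 junction reads for it. The rate used for the choice was the share of including reads, where each skipping read weighs 2 because an included exon has 2 junctions, with reads summed over the 3 control samples. After exact repeats were dropped, 13681 of 24648 events qualified, in 5924 genes. They were 59.7% of the 22915 events that had this depth. Of the 13681, 4411 shared gene, start and end with another, so the events counted as exons here are not all independent. The control rates chose these exons, so their high control level is no finding, and such a choice by itself favours lower values in any other sample. The question asked of them was which were skipped in RBM47 cells, and in which genes.

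RNA was sequenced from MDA231-BrM2a, a brain-metastatic derivative of the human breast cancer line MDA-MB-231, with 3 samples in each of 2 groups. Control cells were a non-clonal population with the empty vector pRetroX-Tight-Pur, and RBM47 cells were the clone wt#10, which carries Flag-tagged wild type RBM47 behind a doxycycline-inducible promoter. Both groups received 10 ng/ml doxycycline for 3 days. Because the RBM47 cells were 1 clone and the controls were not clonal, the effects of RBM47 and of clonal origin cannot be told apart here, and since no source says that the samples were separate cultures, p-values measure the spread between these samples only.

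In splicing, the spliceosome removes introns and joins exons, and RNA-binding proteins near an exon can raise or lower its use. RBM47 is such a protein, with RNA recognition motifs, and it was studied as a suppressor of breast cancer progression. An exon whose length is a multiple of 3 can be left out of a coding sequence without a change of reading frame, while skipping of other exons shifts the frame downstream. Short exons of this kind often encode small, cell-type-specific inserts in proteins of the cell skeleton and of vesicle traffic.

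The table gives each event's flanking region and not the exon itself, so exons were matched to GENCODE v44 on GRCh37 by gene and outer span. Exactly 1 exon fitted for 6943 of the 13681 exons. The 6 sequences below are short or frame-preserving coding exons that were used less in RBM47 cells, shown in the direction of transcription with 30 intron bases before and 10 after. Exon bases are in capitals and intron bases in lower case. All 6 exons lie between AG and GT.
CLSTN1, chr1:9797546-9797642, minus strand, 57 bases: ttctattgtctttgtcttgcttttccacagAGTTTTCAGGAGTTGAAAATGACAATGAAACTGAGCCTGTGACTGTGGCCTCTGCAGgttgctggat
TBC1D23, chr3:100030647-100030731, plus strand, 45 bases: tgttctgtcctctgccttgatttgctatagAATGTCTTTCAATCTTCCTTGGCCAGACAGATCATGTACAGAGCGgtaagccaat
MYO9B, chr19:17321112-17321199, plus strand, 48 bases: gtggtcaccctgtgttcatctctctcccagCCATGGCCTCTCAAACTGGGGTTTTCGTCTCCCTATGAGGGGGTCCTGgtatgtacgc
LMO7, chr13:76383260-76383329, plus strand, 30 bases: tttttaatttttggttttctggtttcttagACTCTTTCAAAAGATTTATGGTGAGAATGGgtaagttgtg
LIMCH1, chr4:41640919-41640994, plus strand, 36 bases: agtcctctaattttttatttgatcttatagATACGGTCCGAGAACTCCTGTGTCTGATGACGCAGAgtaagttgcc
KHK, chr2:27317315-27317489, plus strand, 135 bases: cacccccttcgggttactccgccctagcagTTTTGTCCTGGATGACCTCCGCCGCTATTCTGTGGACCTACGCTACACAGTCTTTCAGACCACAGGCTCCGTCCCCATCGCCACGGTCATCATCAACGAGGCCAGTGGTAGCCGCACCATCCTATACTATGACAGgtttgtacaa

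These near-constitutive exons had a median of 561 junction reads over the control samples and 476 over the RBM47 samples. Reads are known per group only, so the depth of a single sample is unknown and no interval is given for a sample's rate. For 472 of the exons the 6 sample rates stood in another row of the table. In 429 of them the rates were brought back by both printed group averages. In the other 43 only the printed RBM47 average fitted, and the printed control average did not. All 43 of these were called by the study's criteria further on, that of KIAA1217 as higher and the rest as lower. Among the 13205 exons with rates as deposited, 11 were called lower. A further 4 exons had no rates that could be placed. All misplaced rates lay among events with a Fisher p of at most 0.05, where they were 38.5% of 3474 events. The repair therefore touches most of the exons named below, including all 14 that limma called, and 43 of the 54 counted further on. All 14 were matched by the RBM47 average alone. So were the repaired exons among the 54, except that of FBXL13. Over the 472 exons, the difference from summed reads, which needs no repair, went with the repaired difference at a Pearson r of 0.867 and with the rates standing in the row at 0.165. Most of the 472 were matched by both averages, so this says less about the rest. Over the 253 events of the whole table matched by the RBM47 average alone, the summed control rate was compared with the matched control mean. There r was 0.968, and 0.0111 with the rates standing in the row. These are correlations across exons, which are not independent replicates. The sums can also hold including reads that the sample rates do not, and 589 of the exons (4.31%) had a mean control sample rate under 0.9.

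Most near-constitutive exons were included alike in both groups. The median difference of the mean rate, RBM47 minus control, was 0, with quartiles at -0.00784 and 0.00712. A rate of 1 in all 6 samples was found in 2675 exons. Of the others, 5512 had a lower mean rate in RBM47 cells and 5478 a higher one, the remainder being equal in the means. The median rate from summed reads was 0.989 in control and 0.99 in RBM47 cells.

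A small set was called lower in RBM47 cells. By limma on the arcsine square root of the sample rates, fitted to all 19751 events that could be tested, 14 of the 11000 testable near-constitutive exons were lower in RBM47 cells by at least 0.2 at a Benjamini-Hochberg adjusted p under 0.05. That is 0.127% of them, beside 0.197% of all events tested. All 14 also met the criteria of the study, namely a Fisher p of at most 0.05, a difference of at least 0.2 in the mean rate and at least 10 reads. The control rates, 1 side of the contrast, chose the exons, so nothing is read from the share.

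The exon of CLSTN1, which encodes calsyntenin-1, a membrane protein that links vesicles to kinesin motors, had the largest fall after that of ADAM15, and on more reads. Its inclusion rates were 0.903, 0.909 and 0.919 in the control samples and 0.295, 0.391 and 0.241 in the RBM47 samples. The groups did not overlap, and skipping was the commoner outcome in every RBM47 sample. The mean fell by 0.602, from 0.911 ± 0.00797 to 0.309 ± 0.0761 (SD, n = 3), and limma gave an adjusted p of 0.000461. From 1944 control and 813 RBM47 reads, the summed rates were 0.912 and 0.308, close to the means. In bulk RNA, fewer cells that include the exon and less inclusion per cell cannot be told apart. The exon of 57 bases encodes 19 codons.

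TBC1D23, a protein that captures endosome-derived vesicles at the trans-Golgi, lost most use of a 45-base exon. Rates were 0.977, 0.983 and 0.960 in control and 0.481, 0.378 and 0.344 in RBM47 samples, so all 3 RBM47 samples lay under every control sample by a wide margin. The mean fell by 0.572, from 0.973 ± 0.0122 to 0.401 ± 0.0711 (SD, n = 3; limma adjusted p = 0.000574). Summed over 681 and 212 reads, the rates were 0.977 and 0.399.

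In the next exons, inclusion stayed the commoner outcome in RBM47 cells. DIAPH1, a formin that builds actin filaments, had rates of 0.963, 0.971 and 0.955 in control and 0.739, 0.670 and 0.710 in RBM47 samples, and the mean fell by 0.256 (limma adjusted p = 0.00441). MYO9B, an unconventional myosin, had 0.992, 0.985 and 0.993 against 0.781, 0.661 and 0.784, a fall of 0.248 (limma adjusted p = 0.00216). FMNL3, another formin, had 0.942, 0.939 and 1 against 0.620, 0.667 and 0.570, and its mean fell by 0.342 (limma adjusted p = 0.0406). In all 3 of these the groups were apart, and the summed reads gave rates of 0.717, 0.764 and 0.613 in RBM47 cells, near the sample means. ARHGAP5 is a GTPase-activating protein, and its 2 measures disagreed. Its sample rates were 0.941, 1 and 1 in control and 0.667, 0.80 and 0.833 in RBM47 samples (limma adjusted p = 0.0423), while its summed rate moved only from 1.000 to 0.993 over 4772 and 1158 reads.

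LMO7, a LIM and PDZ domain protein of cell junctions, had a 30-base exon with rates of 0.984, 1 and 1 in control and 0.762, 0.870 and 0.669 in RBM47 samples. The mean fell by 0.228 (limma adjusted p = 0.0249), with the spread of the RBM47 samples (SD 0.101) far above that of control (SD 0.00935). LIMCH1, an actomyosin-binding relative with a LIM domain, is a gene the study followed, and its 36-base exon was near-constitutive too. Its rates were 0.947, 0.977 and 0.956 in control and 0.720, 0.80 and 0.676 in RBM47 samples, without overlap. It met the criteria of the study (Fisher p = 3.07e-06 on summed reads) and missed the limma threshold at an adjusted p of 0.0838, with only 83 reads in RBM47 cells. FAM49B, a binder of Rac1, had rates of 0.970, 0.923 and 0.949 against 0.738, 0.773 and 0.686, and its mean fell by 0.215 (limma adjusted p = 0.00920).

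KHK encodes ketohexokinase, which phosphorylates fructose, and its isoforms A and C are known to differ by the choice between neighbouring exons of equal size. All 3 control samples included the 135-base exon at a rate of 1, without a skipping read. The RBM47 samples stood at 0.720, 0.524 and 0.592, and the mean fell by 0.388 (limma adjusted p = 0.00744). The summed rate was 0.688 over 146 reads. A second KHK event with the same start also met the study's criteria, with means of 0.920 in control and 0.652 in RBM47 cells (limma adjusted p = 0.242). Whether it concerns the neighbouring exon was not examined, and the use of that exon was not analysed here.

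DAB2, a clathrin adaptor that also takes part in signalling, contributed a long exon of 654 bases on chromosome 5 (39382720 to 39383373, GRCh37, minus strand, coding). Control samples were at 1, 1 and 1 and RBM47 samples at 0.752, 0.542 and 0.407. The groups did not overlap, though the RBM47 samples were widely spread, and the mean fell by 0.433 (limma adjusted p = 0.00491). From the sums the rate was 0.820 in RBM47 cells, a smaller difference of -0.180. TTC23 showed the same pattern on fewer reads, with 1, 1 and 1 in control and 0.667, 0.833 and 0.714 in RBM47 samples (limma adjusted p = 0.0432; summed rate 0.818 over 120 reads). Its exon of 122 bases is not coding in the annotation.

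In 3 further genes the sample rates and the sums diverged strongly. NIN encodes ninein, which anchors microtubules at the centrosome, and its 2139-base coding exon on chromosome 14 (51223210 to 51225348, GRCh37, minus strand) had rates of 0.790, 0.736 and 0.750 in control and 0.412, 0.161 and 0.302 in RBM47 samples (limma adjusted p = 0.00920). Its summed rates were 0.966 and 0.813, so by its samples it was not near-constitutive in control. EHBP1L1, a partner of Rab8 in traffic, had 0.873, 0.875 and 0.789 against 0.509, 0.556 and 0.362 (limma adjusted p = 0.0246), with summed rates of 0.958 and 0.795. ADAM15, a cell-surface metalloprotease, had the widest gap between the measures of the 3. Its rates were 1, 1 and 0.60 against 0.0833, 0 and 0.167 (limma adjusted p = 0.0406), while its summed rate was 0.825 in RBM47 cells over 334 reads.

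Of the 14 exons, 8 also fell by at least 0.2 in the rates from summed reads, and there the measures differed by at most 0.0760. These were the exons of CLSTN1, TBC1D23, KHK, FMNL3, DIAPH1, MYO9B, LMO7 and FAM49B. The remaining 6 had a smaller fall in the sums. When 1 sample was left out, 5 to 9 of the 14 exons were still called, 5 of them without any 1 control sample. The exons of CLSTN1, TBC1D23 and MYO9B stayed under an adjusted p of 0.05 with each sample left out in turn, with log2 odds, with the replicate block and among events of a mean rate from 0.1 to 0.9. The exons of 6 genes could not be placed on GRCh37, and the table's own coordinates, whose build is not stated, give their flanking regions as 140946792 to 140978679 on chromosome 5 (DIAPH1), 48317990 to 48327058 on chromosome 12 (FMNL3), 130952802 to 130961885 on chromosome 8 (FAM49B), 65105694 to 65108444 on chromosome 11 (EHBP1L1), 153300517 to 153301468 on chromosome 1 (ADAM15) and 31616358 to 31656243 on chromosome 14 (ARHGAP5).

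**Figure D1:**
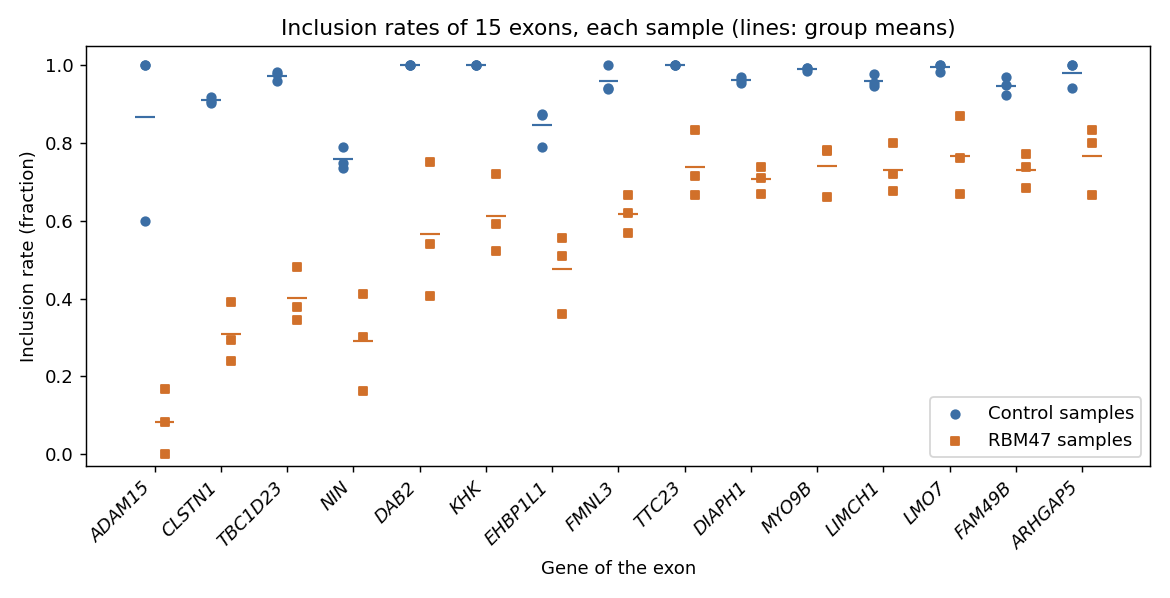
Inclusion rate (fraction, y axis) of each sample for the 14 exons lower by limma and the exon of LIMCH1, with control samples as blue circles, RBM47 samples as orange squares and short lines for the group means (n = 3). In every gene shown all RBM47 samples lie under all control samples, from ADAM15 with a mean of 0.0833 to exons such as ARHGAP5 with a mean of 0.767.

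The Fisher test in the criteria of the study takes the reads of a group as 1 pool and does not see the spread between samples. By these criteria, 54 exons in 48 genes were lower in RBM47 cells and 2 were higher. The 54 lay in 48 flanking regions, as some of these events share a region. The 54 were 0.395% of the 13677 near-constitutive exons with rates, beside 0.699% of all events with at least 30 reads. In 38 of the 54 every RBM47 sample lay below every control sample. No overlap with RBM47 cells lower was found in 544 near-constitutive exons of any size of change, 3.98% of them, beside 5.49% of all events. The median fall among the 54 was -0.260, and 8 of them had no skipping read in control. Median depth over the 54 was 226.5 control reads and 131 RBM47 reads, far fewer than near-constitutive exons in general.

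Further exons had the largest falls among those called by the study's criteria alone, without overlap of the groups. RPL7L1, a ribosomal protein L7-like gene, had 0.684, 0.765 and 1 in control and 0.333, 0.250 and 0.313 in RBM47 samples. C19orf12, a mitochondrial membrane protein, had 0.818, 0.80 and 0.765 against 0.400, 0.333 and 0.375, with only 45 reads in RBM47 cells. BCHE, butyrylcholinesterase, had 1, 0.714 and 1 against 0.50, 0.527 and 0.444. The limma adjusted p was 0.133, 0.126 and 0.131 for these exons. SETDB2, a SET domain protein, had 0.889, 1 and 0.920 against 0.583, 0.565 and 0.611, tight within RBM47 cells, with a limma adjusted p of 0.101. In the zinc finger gene ZNF195 the rates were 1, 0.926 and 0.867 against 0.846, 0.60 and 0.391. All of these exons fell less in the summed rates. RPL7L1 went from 0.966 to 0.763, BCHE from 0.964 to 0.857 and ZNF195 from 0.964 to 0.838. C19orf12 went from 0.901 to 0.552 and SETDB2 from 0.973 to 0.772. These events of RPL7L1 and C19orf12 had mean control sample rates of 0.816 and 0.794, so by their samples they were not near-constitutive in control. A second event of RPL7L1 in the same flanking region was also called. It had 0.933, 0.954 and 1 in control and 0.735, 0.727 and 0.732 in RBM47 samples (limma adjusted p = 0.0542). Its summed rates were 0.982 and 0.859.

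The other exons of this kind had similar or smaller differences. CHFR, a ubiquitin ligase of a mitotic checkpoint, had 0.927, 0.964 and 0.828 against 0.60, 0.571 and 0.731. MPST, mercaptopyruvate sulfurtransferase, had 0.821, 0.939 and 0.778 against 0.650, 0.407 and 0.667. PXMP4, a peroxisomal membrane protein, had 0.90, 0.867 and 1 against 0.636, 0.733 and 0.538, on 58 and 74 reads. FBXL13, an F-box protein, had 1, 1 and 1 against 0.714, 0.80 and 0.655, on 30 and 66 reads. The summed rates went from 0.924 to 0.743 in CHFR, 0.916 to 0.823 in MPST, 0.933 to 0.741 in PXMP4 and 1 to 0.714 in FBXL13. MPST had a mean control sample rate of 0.846, so by its samples it was not near-constitutive in control. The limma adjusted p-values of these exons ran from 0.118 for FBXL13 to 0.375 for PXMP4. None was thus separated from the spread between samples after adjustment.

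The most deeply read of the 54 were events on the X chromosome in one region, which the table lists under RPL10 and under the small nucleolar RNA SNORA70 inside it. RPL10, a protein of the large ribosomal subunit, had rates of 0.931, 0.545 and 1 in control and 0.447, 0.273 and 0.810 in RBM47 samples, which overlap. Its summed rate was 0.999 over 11530 control reads and 0.997 over 13886 RBM47 reads. The events share reads and have near-identical copies elsewhere in the genome, so their sample rates are uncertain. The remaining 26 of the 54 had differences from -0.469 to -0.201. Their shallower group had a median of 83.5 reads, 13 of them showed no overlap, and 7 also fell by 0.2 in the sums. FIGNL1 accounts for 4 of the 26, as overlapping events.

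The call depended strongly on which rate was used. When the rates came from summed reads, 26 near-constitutive exons were lower by at least 0.2 at a Fisher p of at most 0.05, which is 0.190%, beside 0.585% of all events. Only 21 of the 54 (38.9%) passed by both measures, and 5 of the 54 had fallen by less than 0.05 in the sums. Another 5 exons passed by sums without a call by the sample rates, and they are named here after their values were seen. They were in SYNE1 (0.938 to 0.676), ZFYVE26 (0.947 to 0.632), SMN2 (1 to 0.745), OGG1 (0.922 to 0.672) and RPL36A-HNRNPH2 (0.98 to 0.762). Their RBM47 reads were few, at 31, 31, 41, 56 and 74. The mean sample rates of SYNE1, ZFYVE26 and SMN2 differed by -0.168, -0.177 and -0.16, short of the size of 0.2. OGG1 and RPL36A-HNRNPH2 had no sample rates that could be placed, so the other measure could not be applied to them. SMN2 has a near-identical copy in the genome and is uncertain.

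**Figure D2:**
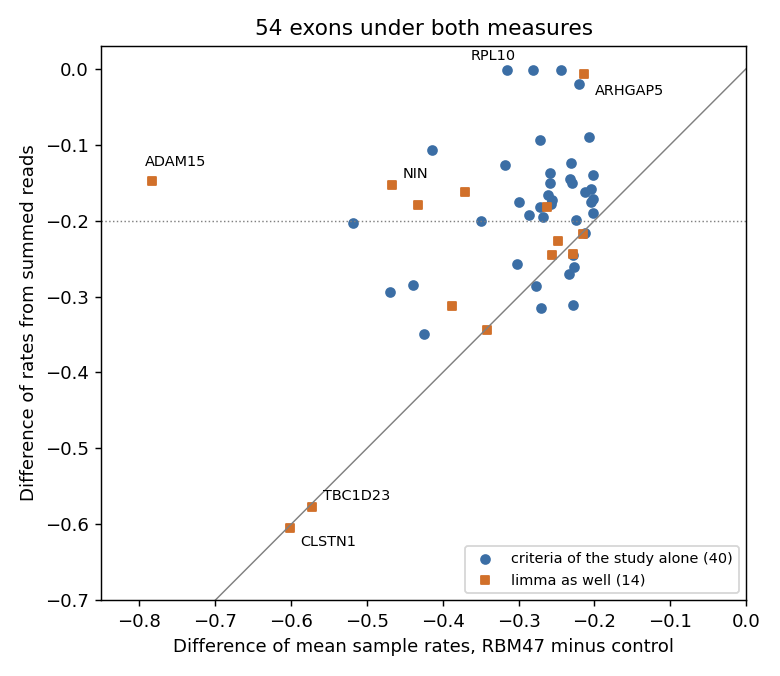
Each of the 54 exons by its difference in mean sample rate (x axis, RBM47 minus control) and its difference in rate from summed reads (y axis, same direction), with squares for the 14 that limma also called, a grey line of equality and a dotted line at -0.2. CLSTN1 and TBC1D23 lie on the line, while ADAM15, NIN, ARHGAP5 and RPL10 lie far above it.

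To allow for regression to the mean, the same criteria were applied with the groups exchanged. Exons with an RBM47 rate of at least 0.90 were taken, and those lower in control cells were counted. Selection acts on this mirror set as it does on the near-constitutive exons, and 13093 exons belonged to both. The mirror count also holds any exon used more in RBM47 cells, so it does not measure selection alone. Among them, named after their values were seen, was MYO6, with mean rates of 0.0278 in control and 0.935 in RBM47 cells. Events of PBRM1 in the same flanking region had 0.360 and 0.944, and 0.587 and 0.976. In the mirror set 22 of 13699 exons (0.161%) met the criteria, against 54 of 13677 (0.395%). Of these, 15 of the 22 and 43 of the 54 rested on rates matched from another row. At a difference of 0.1 the counts were 98 in the mirror set and 150 among near-constitutive exons, and at 0.3 they were 9 and 18. The limma counts were 3 and 14. No test of the difference between these counts was made, as the sets share most of their exons.

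From summed reads the 2 directions were closer. The counts were 26 near-constitutive exons and 17 mirror exons at a difference of 0.2, 111 and 72 at 0.1, 8 and 10 at 0.3, and 2 and 3 at 0.5. The near-constitutive count was thus above the mirror count at 0.1 and 0.2 and not at 0.3 or 0.5, where both counts were small. As the mirror count holds exons used more in RBM47 cells, nothing is read from this on selection. Under a rate of 0.8 from sums, there were 69 near-constitutive exons in RBM47 cells and 43 mirror exons in control cells. Under 0.9 the numbers were 584 and 606. The mean difference over all exons was -0.00408 for near-constitutive exons and -0.00400 for the mirror set, and non-overlapping groups were found in 3.98% and 4.35%.

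**Figure D3:**
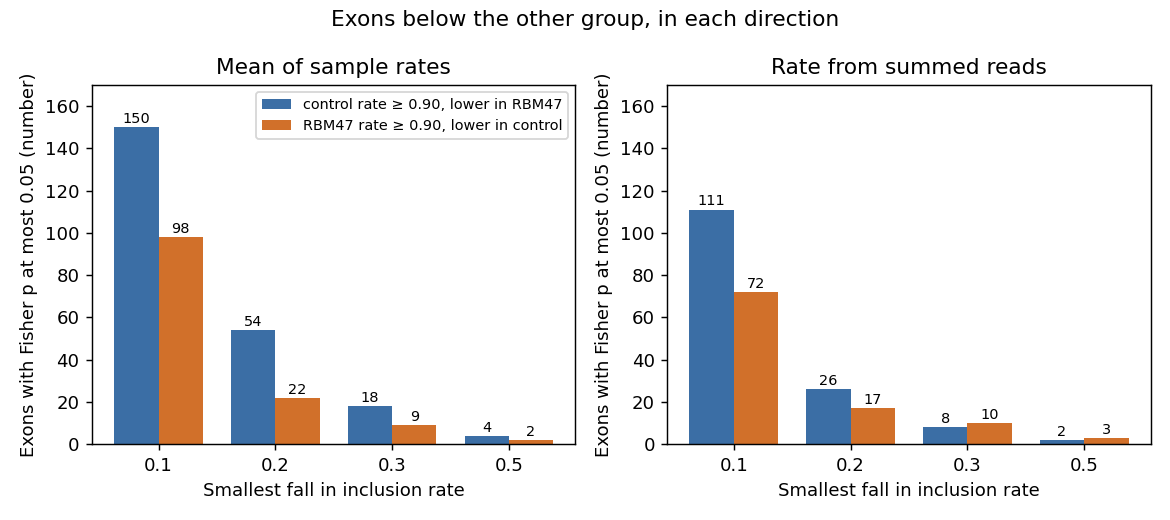
Number of exons with a Fisher p of at most 0.05 (y axis) by smallest fall (x axis), from the mean of sample rates (left) and from summed reads (right). Blue bars are near-constitutive exons lower in RBM47 cells and orange bars are mirror exons lower in control. Blue exceeds orange at every fall on the left, and on the right only at 0.1 and 0.2.

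The share called was lower at greater depth. Among near-constitutive exons whose shallower group had 30 to 99 reads, 22 of 1964 (1.12%) met the criteria of the study, and where it had 1000 or more, 6 of 3852 (0.156%) did. The mirror set gave 12 of 1936 (0.620%) and 0 of 3859 in the same bands. Where both groups had 300 reads or more, the counts were 15 of 8287 and 4 of 8333. The mean difference shrank with depth in the same way in both sets, from -0.0131 at 30 to 99 reads to -0.000695 at 1000 or more among near-constitutive exons, and from -0.0124 to -0.000583 in the mirror set.

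**Figure D4:**
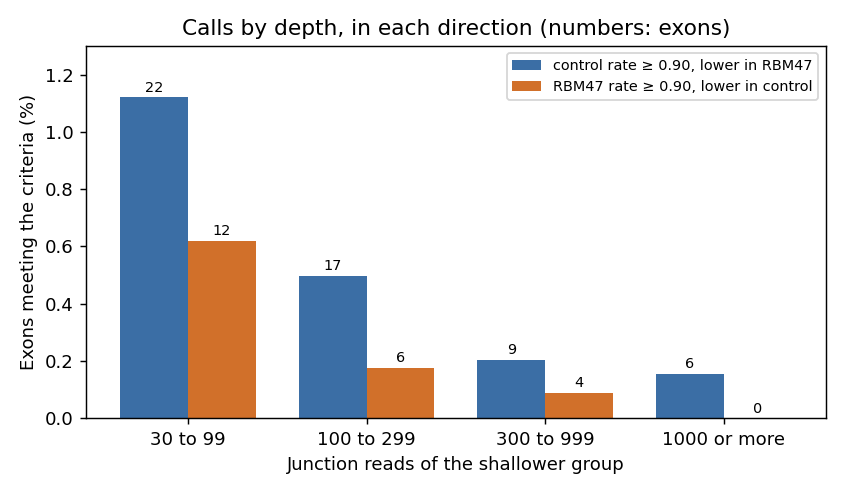
Share of exons meeting the criteria of the study (y axis, percent) by the reads of the shallower group (x axis), with the number of exons above each bar, blue for near-constitutive exons lower in RBM47 cells and orange for mirror exons lower in control. Both fall with depth, from 22 and 12 exons at 30 to 99 reads to 6 and 0 at 1000 or more.

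A control sample that took no part in the choice gave a second background. Exons were chosen by a mean rate of at least 0.90 in 2 control samples, and falls of at least 0.2 from that mean were counted in the third. They were 114 of 13123, 109 of 13129 and 102 of 13122 exons, or 0.869%, 0.830% and 0.777%, in cells without the transgene. In the RBM47 samples the same exons gave 0.953%, 0.914% and 1.01% in sample 1, 1.45%, 1.61% and 1.47% in sample 2, and 1.07%, 1.19% and 1.03% in sample 3. The share fallen was thus higher in every RBM47 sample than in the held-out control for each choice, with sample 2 the highest. The mean rate did not follow this order. It was 0.9732, 0.9723 and 0.9732 in the held-out control and 0.9735, 0.9730 and 0.9733 in sample 2. Sample 1 had 0.9727, 0.9724 and 0.9723, and sample 3 had 0.9713, 0.9706 and 0.9713. Whether the falls came from wider scatter or from skipping was not tested. Falls in all 3 RBM47 samples at once were rare, at 17, 18 and 22 exons. Where both groups had 100 reads or more, the held-out control fell to 27, 37 and 29 exons, while the RBM47 samples gave 52 to 82 and all 3 together 11 to 13.

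**Figure D5:**
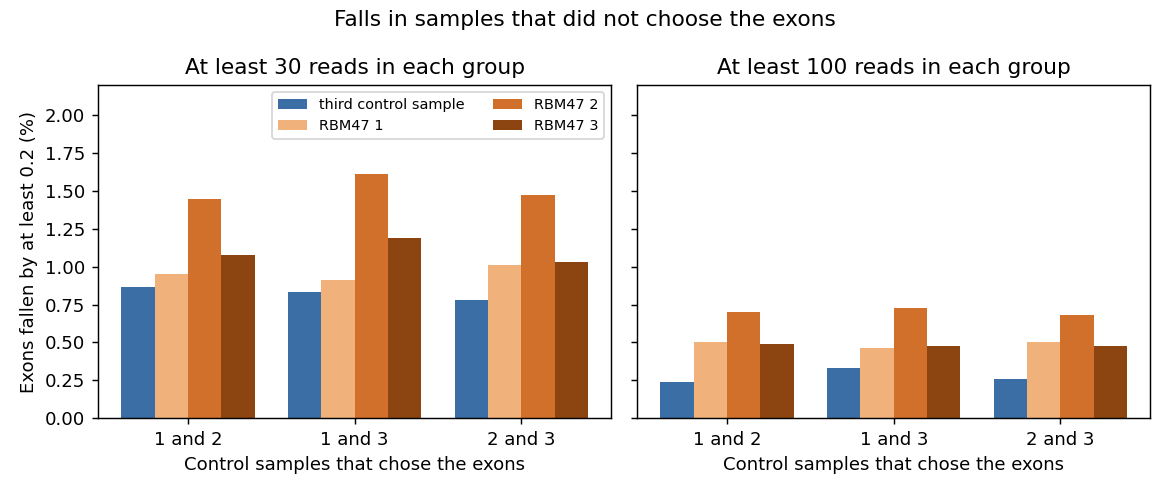
Percent of exons fallen by at least 0.2 (y axis) in the control sample that did not choose them (blue) and in each RBM47 sample (orange shades), for each pair of choosing control samples (x axis), at 30 reads (left) and 100 reads (right) in each group. The held-out control sits at 0.777% to 0.869% on the left, below every RBM47 sample.

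When exons were chosen on both groups together, by a rate of at least 0.90 over all reads, the difference was not separable from the spread. Over 13710 exons, a rate under 0.7 was found in 0.627%, 0.635% and 0.656% of exons in the control samples and in 0.598%, 0.999% and 0.671% in the RBM47 samples. The means were 0.639% ± 0.0152 and 0.756% ± 0.214 (SD, n = 3), with p = 0.6 by a two-sided exact permutation test, for which 0.1 is the smallest p that 3 against 3 allows. RBM47 sample 2 was the highest of the 6, and without it the sign turned, to -0.00486 percentage points.

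The level of control inclusion had its own gradient. Exons called lower by the criteria of the study made up 0.808% of those with a control rate of 0.90 to 0.95, 0.636% from 0.95 to 0.98, 0.195% from 0.98 to under 1, and 0.208% of the 3845 with no skipping read in control. Just outside the threshold, from 0.85 to 0.90, the share was 1.23%. The deepest exons beside the threshold were 2 overlapping events of RPLP0, a ribosomal stalk protein, just inside at a summed control rate of 0.905. The first had sample rates of 0.794, 0.717 and 0.731 in control and 0.496, 0.60 and 0.675 in RBM47 samples, far below its sums. Just outside lay SRSF7, a splicing factor, at 0.894 and ATP5A1, a subunit of ATP synthase, at 0.897. SRSF7 had 0.897, 0.886 and 0.902 against 0.913, 0.914 and 0.914.

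Among the skipped exons, 23 of the 54 could be placed on GRCh37, and so could 8 of the 14. The placed exons of the 54 had a median length of 107 bases, beside 114 for the 6943 near-constitutive exons placed. Exons of at most 60 bases were 8 of 23 (34.8%), beside 10.4% of all placed. They were in SUCO, LMO7, LIMCH1, TBC1D23, MYO9B, MTMR8, FBXL13 and CLSTN1, and lengths ran from 21 bases in SUCO to 57 in CLSTN1. Lengths that are a multiple of 3 made up 13 of 23 (56.5%, Wilson 95% interval 36.8% to 74.4%), beside 42.9%. Among the 8 placed limma exons the share was 7 of 8, the exception being that of TTC23. All 23 had AG and GT at their borders, as had 99.5% of all placed. The share lying wholly in coding sequence was 78.3%, beside 91.7%. These shares describe few exons, chosen after a test, and were not tested.

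Other near-constitutive exons of the same genes were examined beside those called. Of the 48 genes with an exon among the 54, 28 had another near-constitutive exon, 83 in all. The median difference of these neighbours was -0.000316, and 12 (14.5%) were lower by at least 0.1, beside 327 (2.39%) of all near-constitutive exons with rates. Some of them overlap the exon called, so they are not independent of it. Both others of FIGNL1 had lower rates (-0.232 and -0.198), as had the other of KHK (-0.179) and all 3 of GLYCTK (-0.151 to -0.116). ADAM15 had 8 others, from -0.163 to 0.0207. Of the other genes the study followed, SLK had 1 near-constitutive exon, with no difference, MBNL1 had 6, from -0.0525 to 0.0505, and SEC31A had 7, from -0.0421 to 0.00942. None of these exons met the criteria for a fall. For SLK, MBNL1 and SEC31A the paper reported exons included more with RBM47, checked by RT-PCR. That is the other direction from the falls asked about here, so these exons are no check of those events. In MDM4, a p53 inhibitor, the largest difference was in an event with rates of 0.897, 0.939 and 0.929 in control and 1, 0.714 and 0.750 in RBM47 samples. The groups overlapped, and Fisher's exact test on the sums gave p = 0.419. For MDM4 and LIMCH1 the paper reported exons excluded with RBM47, also by RT-PCR. Whether the events described here are those exons was not examined.

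The exons called were also counted in lists of genes grouped by function. In the list of actin and membrane skeleton genes, 4 of 120 near-constitutive exons (3.33%) met the criteria of the study, those of DIAPH1, MYO9B, LIMCH1 and the formin DIAPH2, and all 4 also by sums. DIAPH2 went from a mean of 0.922 to 0.694, on 71 RBM47 reads (limma adjusted p = 0.20). The list of adhesion and matrix genes had 2 of 83, in ADAM15 and CLSTN1, and the traffic list 1 of 134, in TBC1D23. The list of microtubule and centrosome genes had 1 of 66, in NIN. These compare with 0.395% of all near-constitutive exons with rates, and the median difference was 0 in 9 of the 10 lists and 0.00165 in the microtubule list. The lists were made with results of these data known, and no set was tested.

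In the other 6 lists no near-constitutive exon met the criteria. Splicing regulators had 99 and core spliceosome genes 70, and their lowest differences were -0.0658 in RBFOX2 and -0.0967 in DDX42. DDX42, an RNA helicase, had means of 0.930 and 0.833 (limma adjusted p = 0.0812). Chromatin genes had 103, with -0.162 in ACTL6A as the lowest, and DNA repair genes 115, with MDM4 lowest at -0.100. Protein kinases had 91, among them MARK3, a kinase of cell polarity, whose mean fell from 0.984 to 0.821 at a limma adjusted p of 0.0232, under the size of 0.2. CLK1, a kinase of splicing factors, had means of 0.846 and 0.690 (limma adjusted p = 0.148). Wnt pathway genes had 22, with -0.0328 in FBXW11 as the lowest.

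As a check of the cells, events were listed for 5 of 6 mesenchymal markers, 2 of 8 epithelial markers, 1 of 4 luminal markers and 0 of 2 blood markers. Of the mesenchymal markers, VIM had 741835 control and 507943 RBM47 junction reads, CD44 had 25226 and 13434, FN1 14407 and 5167, AXL 4460 and 2137, and SPARC 2064 and 1990. Of the epithelial markers, the keratin KRT8 had 3199 and 6358 reads and ESRP2 had 38 and 29, and luminal ERBB2 had 1260 and 1113. Over all events kept, the sums were 26470301 control and 24092775 RBM47 junction reads. The reads are sums per group, so their spread between samples is unknown. A gene without a cassette exon event is not listed whatever its expression, and CDH1, EPCAM and RBM47 itself had none, so this table gives no check of the transgene. The part of these differences in the results above was not tested.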

How the data were processed

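Inclusion rates per sample were deposited by the authors as a fraction for each of 24725 cassette exon rows, and including and skipping junction reads as counts summed over the 3 samples of a group. TopHat is named in the submitters' processing notes, and the build of the table's coordinates is not given in the sources used here. Columns with the authors' own comparison (difference, odds ratio, Fisher p) were not used, and 0 columns of sample values were left out. After 77 exact repeats were dropped, rates that stood in another row were matched by the deposited group averages (tolerance 3e-09), 429 near-constitutive exons by both and 43 by the RBM47 average. Fisher's exact test (two-sided, scipy 1.17.1) was run on the counts. Rates were tested in limma 3.58.1 (R 4.3.3) after an arcsine square root, with a trend on log2 reads and Benjamini-Hochberg adjustment over all events tested. Events equal in all 6 samples were left out. The limma step was also run on simulated data without misplaced rows, so that run says nothing on the row repair. Exons named were those lower by limma, the 10 largest falls by the study criteria without overlap, the 3 largest falls, exons of followed genes changed by 0.1, the 2 deepest each side of the threshold and the 3 deepest called, and list examples by largest fall. Of these, 1 exon is not reported here. Exons, lists and tests were chosen with earlier results of these data known. Alternatives covered thresholds, depth, scale, row repair and left-out samples.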

Additional observations from a re-analysis of the deposited data

How the results depend on the processing

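The count of 54 near-constitutive exons lower by the study criteria, with 22 in the mirror set, became 30 and 13 with Benjamini-Hochberg adjusted Fisher p-values, 150 and 98 at a difference of 0.1, and 18 and 9 at 0.3. It became 32 and 10 with 100 reads in each group, 26 and 17 from summed reads, 21 and 11 when both rates had to fall (added after seeing the data), and 11 and 7 in rows aligned as deposited, the mirror value being added after seeing the data. Leaving out 1 sample gave 53 to 63 and 21 to 26. The limma count of 14 became 8 on untransformed rates, 6 with events of equal rates kept, 0 in rows aligned as deposited, since all 14 lay in repaired rows, and 26 with no minimum difference. Leaving out 1 sample gave 6 to 11, of which 5 to 9 were among the 14, with 6 without any 1 control sample and 8 without RBM47 sample 1. With the replicate number as a block the count was 8, of which 7 were among the 14. The numbers do not pair the samples: deviations of same-numbered samples correlated at -0.0193, 0.00504 and -0.0173 over 5372 events. Mean falls in the held-out control and the RBM47 samples, 0.825% and 1.19%, were 3.07% and 3.83% at a fall of 0.1, 0.338% and 0.505% at 0.3, and 0.275% and 0.559% with 100 reads. The difference in the share of low rates was -0.00486 to 0.196 percentage points when 1 sample was left out, and turned only without RBM47 sample 2. Exon lengths that are a multiple of 3 were 56.5%, and 87.5% among limma calls. Of 328 values for named exons, 257 kept their direction and side of the threshold, 69 lost the call, 2 gained it and 0 turned. The 257 include exons that were not called and stayed so, and do not measure how stable the calls were. Of the 14 limma exons, 3 stayed under an adjusted p of 0.05 in every setting computed for named exons. Except where a setting leaves samples or events out by construction, the cause was not tested. Reads were known only per group, so the precision of single samples is unknown.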

Other observations

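In the other direction, 2 near-constitutive exons met the criteria of the study, and both are named after their values were seen. In KIAA1217 the rates were 0.824, 0.429 and 0.667 in control and 0.957, 0.949 and 0.913 in RBM47 samples, with a limma adjusted p of 0.148, although its summed control rate was 0.966. In VWA9 the rates were 0.727, 0.692 and 0.857 in control and 1, 1 and 1 in RBM47 samples, with a limma adjusted p of 0.0125 and a summed control rate of 0.956. By the sample rates neither was near-constitutive in control. VWA9 was the only near-constitutive exon that limma called higher by at least 0.2.

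Of the 4 near-constitutive exons whose sample rates could not be placed, OGG1 and RPL36A-HNRNPH2 are described above. In DCUN1D4 and NDFIP2 the summed control rate was 1 over 529 and 539 including reads, and the RBM47 rate was 0.978 and 0.966, from 3 and 4 skipping reads.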
